A study of Mus musculus with 6 samples.

Results

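The genes described here were Ccl2, Ccl7, Ccl8 and Ccl12, which encode the monocyte chemoattractant proteins of the mouse, and Ccr2. Ccr2 is the receptor best known for Ccl2, Ccl7 and Ccl12, while Ccl8 is also known in mice as a ligand of Ccr8. The genes were taken by symbol, and all 5 were found among the 23946 genes of the deposited table. RNA had been sequenced from CD45+CD11b+F4/80+ cells sorted out of dissociated omentum (OM) or mesenteric adipose tissue (MY) of C57BL/6 mice. The naive state (0h) was set beside 24 h and 7 d after intraperitoneal injection of ID8, a mouse ovarian carcinoma line that grows in immunocompetent C57BL/6 hosts. This gave 6 conditions named OM 0h, OM 24h, OM 7d, MY 0h, MY 24h and MY 7d. All mice were young adult females with an intact immune system and no engineered allele. The series names 9 mice in 3 groups of 3, the tissue of 3 mice was pooled in a tube, and the table holds 1 library per condition. A pool shows no spread between mice, ID8 is a cell line grown in culture and not a tumour of the host, and no mock-injected group is among the samples used here, so the effect of the tumour cells and that of an injection cannot be told apart. Values therefore come without a replicate check or a p-value, and each difference describes only the pair of libraries it was taken from.

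Chemokines are small secreted proteins that guide leukocytes along a gradient. Ccr2 is a G protein-coupled receptor carried at high levels by classical monocytes, which need it to leave the bone marrow and to enter inflamed tissue. Ccl2 and Ccl7 are its classic ligands in mice, Ccl12 is a further mouse ligand, and Ccl8 belongs to the same subfamily but is also known in mice as a ligand of Ccr8. Macrophages, fibroblasts, mesothelial cells and endothelial cells can all produce these ligands when stimulated.

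The 4 ligand genes lie close together. On NCBIM37 (mm9), GENCODE M1 places Ccl2 at chr11:81849073-81850955, Ccl7 at chr11:81859214-81861027, Ccl12 at chr11:81915347-81916902 and Ccl8 at chr11:81928687-81930301, all on the plus strand. The stretch from the start of Ccl2 to the end of Ccl8 covers 81.2 kb and holds 5 protein-coding genes, the fifth being Ccl11, which encodes eotaxin and sits between Ccl7 and Ccl12. Ccr2 lies at chr9:124016689-124028296 on the plus strand. Over the aligned coding sequence the 4 ligands were between 64.6% and 70.8% identical, with Ccl8 and Ccl12 the closest pair. No window of 75 bases of any ligand transcript occurred in another gene, whereas 78 of the 6440 windows of Ccr2 were not unique to it, so that part of its reads could be split by the counting. Ccl2 overlaps the minus-strand gene Gm17268, which has no row in the table, and whether strand was used in counting is not given in the sources used here, so reads of the overlap cannot be assigned to either gene.

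The proximal promoters are shown because 4 ligands of the same cluster did not share the same pattern over the libraries. RefSeq promoters on GRCm38.p6 were matched for 3 of the 5 genes, Ccl8, Ccl12 and Ccr2. The entries of Ccl2 and Ccl7 were not matched. Each line gives the 250 bases before the annotated start, read 5′ to 3′ on the plus strand, at chr11:82114935-82115184 for Ccl8, chr11:82101595-82101844 for Ccl12 and chr9:124101933-124102182 for Ccr2. Capitals mark matches to any of 7 motifs searched on both strands.
Ccl8: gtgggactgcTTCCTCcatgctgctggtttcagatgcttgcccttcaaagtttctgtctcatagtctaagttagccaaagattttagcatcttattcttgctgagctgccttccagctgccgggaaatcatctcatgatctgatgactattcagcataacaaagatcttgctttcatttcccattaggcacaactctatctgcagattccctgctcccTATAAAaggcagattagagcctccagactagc
Ccl12: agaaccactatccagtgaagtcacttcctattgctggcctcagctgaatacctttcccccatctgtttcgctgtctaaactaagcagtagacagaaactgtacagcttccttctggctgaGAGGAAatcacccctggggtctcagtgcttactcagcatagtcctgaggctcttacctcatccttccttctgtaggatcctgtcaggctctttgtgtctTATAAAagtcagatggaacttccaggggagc
Ccr2: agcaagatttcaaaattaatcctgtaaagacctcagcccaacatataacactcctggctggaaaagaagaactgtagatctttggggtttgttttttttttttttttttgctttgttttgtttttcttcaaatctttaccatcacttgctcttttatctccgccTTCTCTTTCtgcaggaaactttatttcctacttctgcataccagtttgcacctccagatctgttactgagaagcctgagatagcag
The core promoter and myeloid motifs were TATAAA, the TATA box, and GAGGAA, the core bound by PU.1. The inducible motifs were GAAANNGAA for interferon regulatory factors, TTCNNNGAA for STAT factors, TGANTCA for AP-1 and the NF-kB consensus. The last motif was GGGCGG, bound by Sp1. Counting back from -1 at the base before the start, TATAAA stood at -32 to -27 in Ccl8 and at -31 to -26 in Ccl12, and 12.4% of 32851 RefSeq promoters of this length hold it. GAGGAA stood at -240 to -235 on the minus strand of Ccl8 and at -130 to -125 on the plus strand of Ccl12, and 23.3% of promoters hold it. The match in Ccr2 was GAAANNGAA on the minus strand at -86 to -78, which 7.13% of promoters hold, and no matches overlapped. The letters of the other motifs were not in these windows, and the shares of promoters holding them were 7.02% for TTCNNNGAA, 6.75% for TGANTCA, 32.7% for GGGCGG and 3.90% for the NF-kB consensus.

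The unit was FPKM, fragments per kilobase of transcript and per 1000000 aligned reads, which is scaled by gene length and so allows levels of different genes to be set side by side. Its sum ranged from 526887 to 713863 per library, and relative depth, judged from the commonest ratio of low values, lay between 0.856 and 1.49 when MY 0h is set to 1. Read numbers are not in the table, so no counting interval is given. The sort markers were present in every library, with an FPKM of 106 to 208 for Ptprc (CD45), 27.8 to 150.9 for Itgam (CD11b) and 20.5 to 135 for Emr1 (F4/80). Transcripts of other cells were present too, and their values are given beside the results they moved with.

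Ccl2, the founding member of the group and the main signal that brings monocytes out of the marrow, had an FPKM of 29.0 in OM 0h, 130.4 in OM 24h and 55.2 in OM 7d. In the naive mesentery its FPKM was 1.47, with 0.937 at 24 h and 0.403 at 7 d. The tissues did not overlap, the lowest omental value being 19.7 times the highest mesenteric value, and in no adjacent pair of this order were the values within 1.5-fold.

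Ccl7, a broader ligand also known to bind Ccr1 and Ccr3, had an FPKM of 23.7 in OM 0h, 124.8 in OM 24h and 26.4 in OM 7d. Its mesenteric FPKM was 0.931 at 0 h, 0.243 at 24 h and 0.239 at 7 d. The tissues stood further apart than for Ccl2, with the lowest omental value 25.5 times the highest mesenteric value, whereas OM 0h and OM 7d lay within 1.11-fold of each other. In the mesentery Ccl7 was below an FPKM of 1 in every library, and it exceeded only 6.35% of the expressed genes in MY 24h.

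Ccl8 had the highest level of the 4 ligands in 5 of the 6 libraries. Its FPKM was 42.2 in OM 0h, 681 in OM 24h and 33.1 in OM 7d. The naive mesentery had 16.0, followed by 22.4 at 24 h and 7.85 at 7 d. Ccl8 was thus present in both tissues, and OM 7d was only 1.48 times MY 24h. In OM 24h it ranked 2 of 30 expressed chemokine ligands and exceeded 99.0% of expressed genes.

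Ccl12 had an FPKM of 7.55 in OM 0h, 182 in OM 24h and 26.3 in OM 7d. The naive mesentery had 10.8, followed by 15.3 at 24 h and 5.51 at 7 d. This was the only ligand of the 4 whose tissues overlapped, since OM 0h lay below both MY 0h and MY 24h. The values of MY 24h, MY 0h, OM 0h and MY 7d followed each other in steps of under 1.5-fold, and OM 24h stood 6.92-fold above OM 7d, the next in order.

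**Figure D1:**
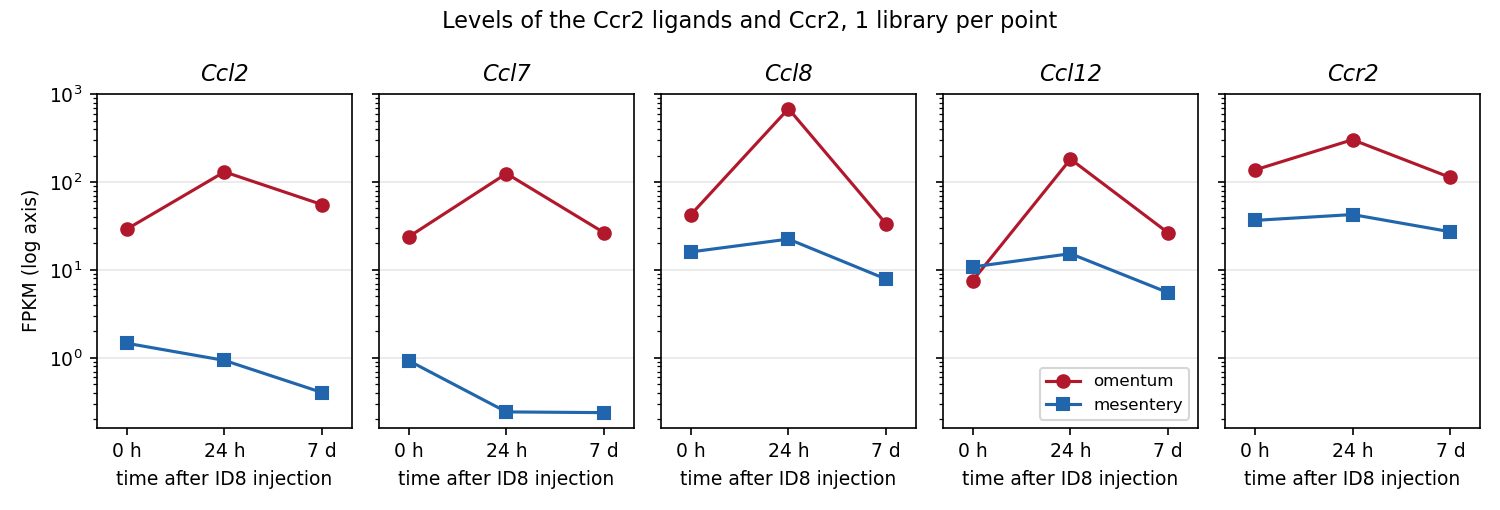
FPKM on a log axis of Ccl2, Ccl7, Ccl8, Ccl12 and Ccr2 against time after ID8 injection, with 1 library per point, red circles for the omentum and blue squares for the mesentery. Each gene was highest in OM 24h, and the omental line lies above the mesenteric line at every time except for Ccl12 at 0 h, where the FPKM was 7.55 against 10.8.

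Ccr2 was the member least spread over the libraries. Its FPKM was 136.7 in OM 0h, 302.5 in OM 24h and 112.5 in OM 7d. The naive mesentery had 36.6, followed by 42.6 at 24 h and 27.2 at 7 d. The omental values spanned 2.69-fold and the mesenteric values 1.57-fold, against 24.1-fold and 2.78-fold for Ccl12, and the lowest omental value was 2.64 times the highest mesenteric value. Among 22 expressed chemokine receptors Ccr2 ranked 1 in OM 0h and OM 24h and 2 in OM 7d, and it ranked 3, 2 and 6 at the same times in the mesentery. In bulk RNA of a sorted population, a higher share of Ccr2-positive cells and more Ccr2 RNA per cell cannot be told apart, and the same holds for each ligand.

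The summed FPKM of the 4 ligands was 102 in OM 0h, 1118 in OM 24h and 141 in OM 7d. In the mesentery the sum was 29.2 at 0 h, 38.9 at 24 h and 14.0 at 7 d. The sum in OM 24h was therefore 10.9 times that in OM 0h and 28.7 times that in MY 24h, and the 4 genes made up 21.4% of the summed FPKM of all chemokine ligands there, against 5.16% in OM 0h, 7.80% in OM 7d and between 0.923% and 1.38% in the mesentery. Set against the receptor, the ligand sum was 3.70 times the FPKM of Ccr2 in OM 24h and between 0.516 and 1.25 times in the other 5 libraries. Ccl8, also known as a ligand of Ccr8, made up 60.9% of the sum in OM 24h.

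The makeup of this sum differed between the tissues. Ccl2 and Ccl7 held 28.3% and 23.2% of it in OM 0h, 11.7% and 11.2% in OM 24h, and 39.1% and 18.7% in OM 7d. In the mesentery Ccl2 held between 2.41% and 5.02% and Ccl7 between 0.625% and 3.18%, so that nearly all of the mesenteric sum was Ccl8 (54.8% to 57.6%) and Ccl12 (37.0% to 39.3%). The ratio of Ccl8 to Ccl12 was 1.48 in the naive mesentery, 1.47 at 24 h and 1.43 at 7 d. In the omentum the same ratio was 5.59 in OM 0h, 3.74 in OM 24h and 1.26 in OM 7d, so the near-constant proportion of the mesenteric libraries was not seen there. The ratio of Ccl2 to Ccl7 stayed between 1.04 and 2.09 in the omentum and ranged from 1.58 to 3.85 in the mesentery, where both genes were low.

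**Figure D2:**
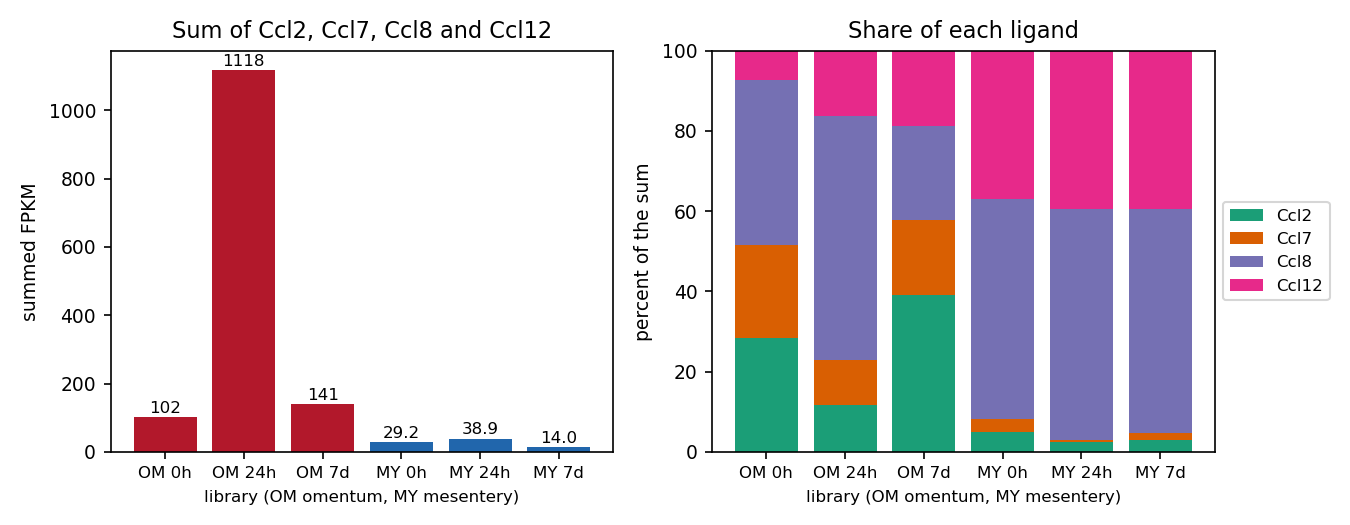
Left, bars from 0 of the summed FPKM of Ccl2, Ccl7, Ccl8 and Ccl12 in each of the 6 libraries (OM omentum, MY mesentery). Right, the percent of that sum held by each ligand, with Ccl8 at 60.9% in OM 24h and Ccl2 and Ccl7 together forming only a thin band in the mesenteric libraries.

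The first comparison asked which of these genes differed in omental macrophages within a day of tumour cell injection. OM 24h exceeded OM 0h at least 2-fold in all 5, against 11.9% of the 13064 expressed genes, that is, of those reaching an FPKM of 1 in any library. On the log2(FPKM + 1) scale, which understates differences of low genes, the difference was 4.42 for Ccl12, 3.98 for Ccl8, 2.35 for Ccl7, 2.13 for Ccl2 and 1.14 for Ccr2. The median of the 5 was 2.35 and that of all expressed genes was 0. By size of the difference Ccl12 ranked 32nd and Ccl8 49th from the top of all expressed genes, while Ccr2 ranked 1273rd. Rescaled to a common sum, Ccr2 was at 0.94 and no longer reached 2-fold. The plain FPKM ratios were 24.1 for Ccl12, 16.1 for Ccl8, 5.26 for Ccl7, 4.49 for Ccl2 and 2.21 for Ccr2.

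Macrophage transcripts differed between the same libraries. All 8 genes of a macrophage list (Emr1, Csf1r, Cd68, Mertk, Fcgr1, C1qa, C1qb and C1qc) had at least 2-fold more in OM 24h than in OM 0h, with a median of 2.46 on the log2 scale, and their summed FPKM was 12837 against 2120. When each library was rescaled to an equal mean of this list, Ccl8 and Ccl12 remained 1.62 and 2.06 higher in OM 24h on the log2 scale, whereas Ccl2 was at -0.23, Ccl7 at -0.017 and Ccr2 at -1.22. That rescaling takes the same amount from every gene. It moved the median of all expressed genes to -2.36 and left the order of the genes as it was. The direction for Ccl2, Ccl7 and Ccr2 thus turned with the scale, and the part of macrophage content in these differences was not tested.

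At 7 d only Ccl12 was at least 2-fold higher than in OM 0h, by 1.68 on the log2 scale, and 11.0% of expressed genes were. Ccl2 was 0.90 higher, 1.90 times by plain FPKM, and passed 2-fold when libraries were rescaled to a common sum. Ccl7 (0.15), Ccl8 (-0.34) and Ccr2 (-0.28) were near their naive values, and Ccl8 and Ccr2 were at 0.062 and 0.12 with the macrophage list made equal. From OM 24h to OM 7d all 5 genes were at least 2-fold lower, against 4.52% of expressed genes. On the log2 scale the difference was -4.32 for Ccl8, -2.75 for Ccl12, -2.20 for Ccl7, -1.42 for Ccr2 and -1.23 for Ccl2, the last being under 2-fold at -0.88 with a common sum. Ccl8 ranked 5th from the bottom of all expressed genes, its FPKM in OM 24h being 20.6 times that in OM 7d. The 8 macrophage genes were also all at least 2-fold lower in OM 7d than in OM 24h, with a median of -2.38. With the macrophage list made equal, Ccl8 alone stayed lower (-1.56), while Ccl2 (1.54), Ccr2 (1.35), Ccl7 (0.56) and Ccl12 (0.018) were at or above their OM 24h values and the median of all expressed genes moved to 2.82. The part of macrophage content in this difference was not tested.

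The mesenteric libraries served as the comparison tissue. Between MY 24h and MY 0h none of the 5 genes differed by 2-fold on the log2(FPKM + 1) scale, and 4.32% of expressed genes did. Ccl8 and Ccl12 were 0.46 higher on the log2 scale and Ccr2 0.22 higher, whereas Ccl2 (-0.35) and Ccl7 (-0.64) were lower, from an FPKM of at most 1.47. The plain FPKM of Ccl7 was 3.83 times higher in MY 0h, and with a pseudocount of 0.1 its difference was -1.59. With the macrophage list made equal, which moved the median of all expressed genes to -1.20, Ccl8 (-0.74), Ccl12 (-0.74) and Ccr2 (-0.99) were also lower in MY 24h than in MY 0h, Ccl2 and Ccl7 passed 2-fold, and 6 of the 8 macrophage genes were at least 2-fold higher in MY 24h on the deposited scale.

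Between MY 7d and MY 0h none of the 5 genes reached 2-fold on the log2(FPKM + 1) scale, and 2.79% of expressed genes did. All 5 were lower, the difference being -0.94 for Ccl8, -0.86 for Ccl12, -0.82 for Ccl2, -0.64 for Ccl7 and -0.42 for Ccr2. The plain FPKM in MY 0h was 3.90 times that in MY 7d for Ccl7, 3.64 times for Ccl2, 2.04 times for Ccl8, 1.96 times for Ccl12 and 1.35 times for Ccr2, Ccl2 and Ccl7 being low in both libraries. From MY 24h to MY 7d Ccl8 (-1.40) and Ccl12 (-1.32) were at least 2-fold lower, 2 of the 5 genes, against 3.54% of expressed genes. Ccr2 (-0.63), Ccl2 (-0.46) and Ccl7 (-0.01) were lower by less. With the macrophage list made equal, none of the 5 reached 2-fold in this comparison and Ccl2, Ccl7 and Ccr2 were at 0.43, 0.89 and 0.26, beside a median of all expressed genes that moved to 0.89.

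**Figure D3:**
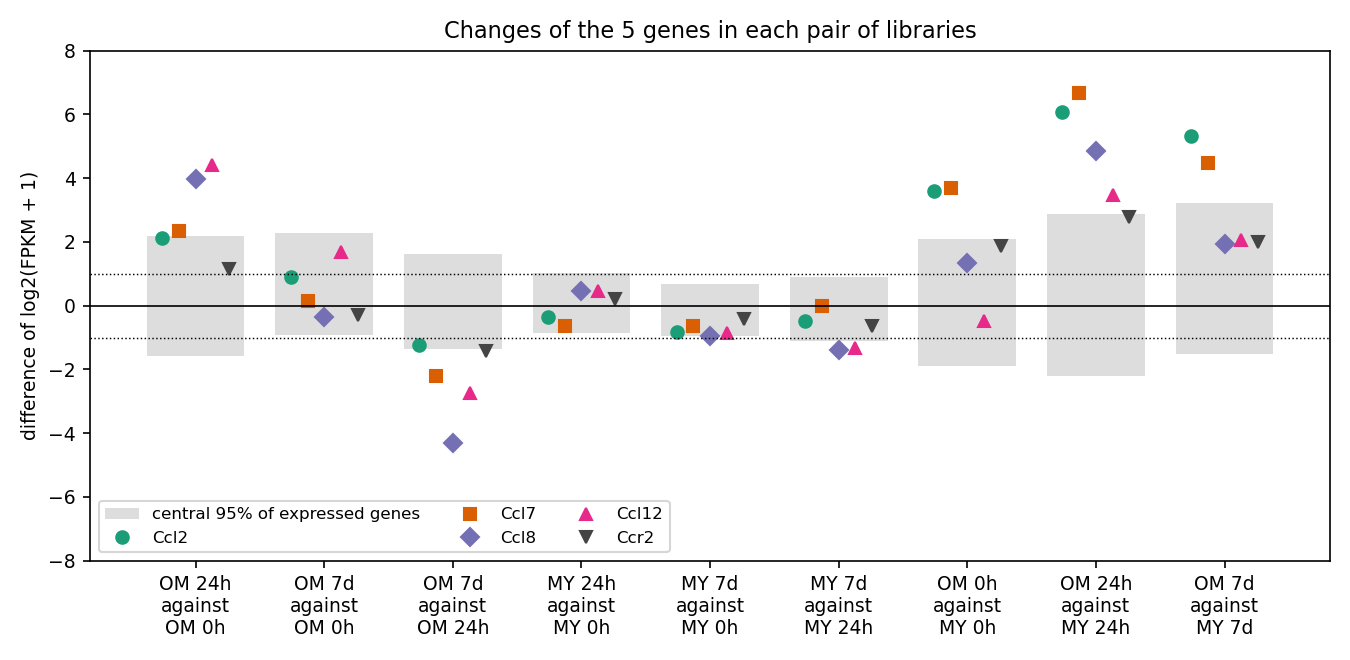
Difference of log2(FPKM + 1) of each gene in 9 pairs of libraries, with grey bars for the central 95% of the 13064 expressed genes and dotted lines at 2-fold. Ccl8 and Ccl12 stand far above the grey bar in OM 24h against OM 0h, at 3.98 and 4.42, and Ccl2 and Ccl7 stand above it in all 3 comparisons of omentum with mesentery.

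The tissues were next compared at the same time. In the naive state OM 0h exceeded MY 0h at least 2-fold in 4 of the 5 genes, against 8.18% of expressed genes. The log2 difference was 3.68 for Ccl7, 3.60 for Ccl2, 1.87 for Ccr2 and 1.34 for Ccl8, and it was -0.47 for Ccl12. With the macrophage list made equal, Ccl8 was under 2-fold at 0.80 and Ccl12 was at least 2-fold lower in the omentum at -1.02, the median of all expressed genes being -0.54. At 24 h all 5 were at least 2-fold higher in the omentum, against 13.9% of expressed genes, with 6.66 for Ccl7, 6.08 for Ccl2, 4.86 for Ccl8, 3.49 for Ccl12 and 2.80 for Ccr2. Ccl7 ranked 8th and Ccl2 15th among all expressed genes by this difference. Since both were low in the mesentery, their size moved with the pseudocount, from 4.63 at a pseudocount of 5 to 8.51 at 0.1 for Ccl7 and from 4.51 to 6.98 for Ccl2. With the macrophage list made equal all 5 were still at least 2-fold higher, at 4.95 for Ccl7, 4.38 for Ccl2, 3.16 for Ccl8, 1.78 for Ccl12 and 1.09 for Ccr2, beside a median of -1.71. At 7 d all 5 were again at least 2-fold higher, against 14.1% of expressed genes, with 5.32 for Ccl2, 4.47 for Ccl7, 2.07 for Ccl12, 2.01 for Ccr2 and 1.95 for Ccl8. Each omental library lay above each mesenteric library in 4 of the 5 genes, all but Ccl12, and this held for 16.7% of expressed genes. Ccl7 was below an FPKM of 1 in each mesenteric library and Ccl2 in 2 of them, so they count as expressed through the tissue where they were high. When all 6 libraries had to reach 1, a filter added after seeing the data, it held for 2 of the 3 members left, Ccl8 and Ccr2, and for 12.9% of the genes kept. Without the 0 h libraries it held for all 5, against 28.5% of expressed genes, and for the same 4 genes as with all libraries without the 24 h (25.1%) or the 7 d libraries (26.3%). The 3 libraries of a tissue are different times and not replicates.

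Other groups of genes also set the tissues apart, some higher and some lower in the omentum. Fibroblast genes (Col1a1, Col1a2, Col3a1, Dcn, Lum and Pdgfra) had a summed FPKM of 221 to 1190 in the omentum and of 2.08 to 3.10 in the mesentery, where Pdgfra was listed at 0 in MY 24h. The 6 mesothelial genes (Msln, Upk3b, Upk1b, Lrrn4, Krt19 and Wt1) had sums of 69.8, 741 and 782 at the 3 omental times and of between 0.0830 and 0.567 in the mesentery, where Wt1 was listed at 0 in MY 0h and MY 7d. The 7 neutrophil genes found in the table, led by S100a8 and S100a9, summed to between 7271 and 19283 in the omentum and between 224 and 854 in the mesentery. All 10 genes of a list induced by tissue dissociation, among them Fos, were at least 2-fold higher in the omentum at each time, with an FPKM of Fos of 730 to 1715 in the omentum and 6.37 to 9.52 in the mesentery. Of the 8 macrophage genes 1 was at least 2-fold higher in the omentum at 0 h, 5 at 24 h and 1 at 7 d, with medians of 0.58, 1.89 and -0.39. All 7 T cell genes were at least 2-fold lower in the omentum at each time, with medians of -3.04, -4.29 and -3.13, and so were 6, 6 and 5 of the 6 NK cell genes, with medians of -2.57, -4.84 and -1.82. The part of these cells and of dissociation in the tissue difference of the 5 genes was not tested. Between OM 0h and OM 24h, 5 of the 6 mesothelial genes and all 7 neutrophil genes were at least 2-fold higher and 1 of the 6 fibroblast genes was at least 2-fold lower, and from OM 24h to OM 7d 1 mesothelial gene and all 6 fibroblast genes were at least 2-fold higher and 2 of the 7 neutrophil genes were at least 2-fold lower, while all 5 genes described here were lower.

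Markers of the cells that carry Ccr2 did not move as a block. Of 10 classical monocyte genes 4 were at least 2-fold higher and 3 at least 2-fold lower in OM 24h than in OM 0h, with a median of 0.71. Ly6c2, the surface marker that defines classical monocytes in mice, had an FPKM of 164 in OM 0h, 241 in OM 24h and 391 in OM 7d, against 184, 106 and 152 at the same times in the mesentery. Ly6c2 was thus highest in OM 7d, where Ccr2 was lowest of the omental libraries. Between the naive tissues it was at -0.16, but 5 of the 10 genes were at least 2-fold higher in the omentum and none was lower, with a median of 1.07. The largest of these differences were those of Fn1, which encodes fibronectin, at 5.05 and of F13a1, a subunit of coagulation factor XIII, at 3.59. Both followed the omental course of Ccr2, with an FPKM of 94.2, 279 and 57.6 for Fn1 and of 64.6, 156.5 and 48.5 for F13a1. The part of monocyte content in the values of Ccr2 was not tested. Of 6 resident macrophage genes 2 reached at least 2-fold more in OM 24h than in OM 0h and all 6 were at least 2-fold lower in OM 7d than in OM 0h. Of 6 genes of nonclassical monocytes, which are known to carry little Ccr2, 2 were at least 2-fold higher and 1 was at least 2-fold lower at 24 h.

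Lymphoid transcripts ran the other way at 24 h. All 6 B cell genes, 6 of 7 T cell genes and all 6 NK cell genes were at least 2-fold lower in OM 24h than in OM 0h, with medians of -2.07, -2.05 and -3.10. Cd3e, of T cells, had an FPKM of 28.0 in OM 0h and 3.98 in OM 24h. All 6 B cell genes, 5 of the 7 T cell genes and all 6 NK cell genes were in turn at least 2-fold higher in OM 7d than in OM 24h. By the same 2-fold count, of 7 dendritic cell genes 1 had a higher and 2 had a lower value, 4 of 5 mast cell genes were lower and 2 of 4 expressed endothelial genes were lower in OM 24h than in OM 0h. The part of the lower lymphoid content in the higher FPKM of the 5 genes was not tested.

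**Figure D4:**
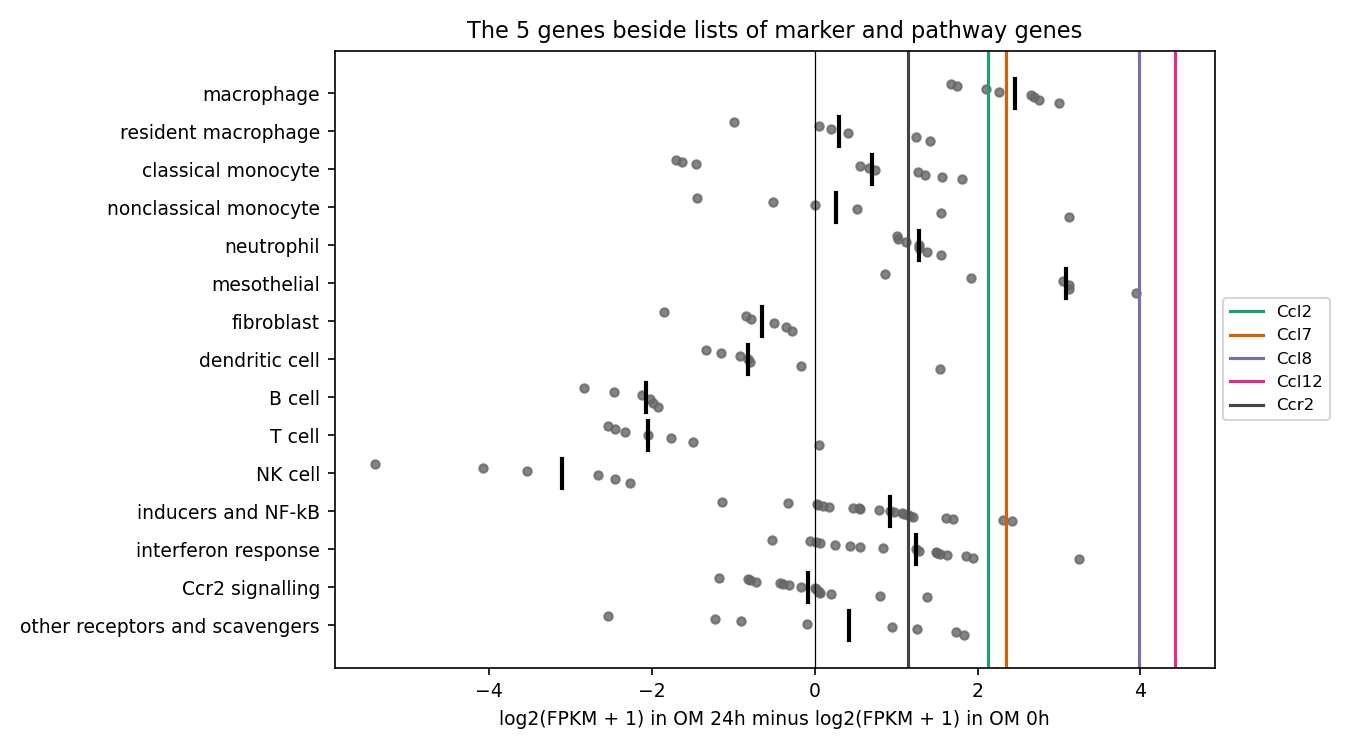
Difference of log2(FPKM + 1) between OM 24h and OM 0h for each expressed gene (grey points) of 15 lists of marker and pathway genes, with the list median as a black tick and coloured vertical lines for the 5 genes. Ccl8 at 3.98 and Ccl12 at 4.42 lie to the right of every macrophage gene, while Ccr2 at 1.14 lies to the left of all 8.

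The other receptors of these ligands followed several patterns. Ccr1, a receptor of Ccl7, had an FPKM of 65.7 in OM 0h, 127.8 in OM 24h and 48.2 in OM 7d, against 2.81, 8.58 and 5.40 at the same times in the mesentery. It was highest in OM 24h, as Ccr2 was. Ccrl2, an atypical receptor that does not drive migration, had 34.1, 123.8 and 51.7 in the omentum and 5.90, 8.14 and 7.58 in the mesentery. Ccr8, a receptor of mouse Ccl8, had an FPKM of 3.17 in OM 0h, 0.777 in OM 24h and 10.8 in OM 7d. It was thus lowest where Ccl8 was highest. Ackr2, a scavenger that removes inflammatory CC chemokines, had an FPKM of 14.4 in OM 0h, 1.63 in OM 24h and 5.80 in OM 7d, and stayed below 1 in the mesentery. Ccr3, the eotaxin receptor, was below an FPKM of 0.5 in OM 0h, OM 24h and MY 0h and between 4.54 and 10.4 in the other 3 libraries. Ackr1, the erythroid and venular scavenger, stayed at or below 2.37, and Ackr4 at or below 2.86. Of the 8 genes on this list 3 were at least 2-fold higher and 2 at least 2-fold lower in OM 24h than in OM 0h, with a median of 0.42.

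The neighbours of the ligands did not share their pattern. Ccl11, which lies within the same stretch of chromosome 11, had an FPKM of 2.21 in OM 0h, 0.211 in OM 24h and 2.51 in OM 7d and stayed at or below 0.117 in the mesentery. It was therefore 1.41 lower on the log2 scale in OM 24h than in OM 0h, where the ligand genes on either side of it were higher. Ccl1, a ligand of Ccr8, was listed at 0 in OM 0h, OM 24h and MY 24h and had an FPKM of 10.6 in OM 7d. Near Ccr2 on chromosome 9, Xcr1 had an FPKM between 3.63 and 7.01 in all libraries, and Ccr9 had between 1.11 and 3.19 in the omentum and between 7.21 and 20.6 in the mesentery.

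Genes that signal below Ccr2 were counted next. Of 16 such genes, among them G protein subunits, arrestin and the Rac exchange factor, 1 was at least 2-fold higher and 1 at least 2-fold lower in OM 24h than in OM 0h, with a median of -0.08, while 18.3% of expressed genes were at least 2-fold apart in either direction. Arrb2, the arrestin that desensitises and internalises chemokine receptors, was at 1.38 (131 against 49.9 FPKM), and Mapk3, the kinase ERK1, at 0.81. Dock2, a leukocyte Rac activator needed for migration, was at -1.18 (43.8 against 100.2 FPKM), and its target Rac2 at -0.82. In OM 7d against OM 0h 1 of the 16 was at least 2-fold lower, Dock2 at -1.08, and none was higher. Between the naive tissues none was at least 2-fold higher in the omentum and 2 were at least 2-fold lower, Arrb2 at -1.25 and Ptk2b, a calcium-activated kinase, at -1.15.

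Genes known to induce these ligands and parts of the NF-kB pathway were next counted. The list also held the inflammatory genes Ccl3, Ccl4, Cxcl1, Cxcl2 and Ptgs2, which are neither. Of the 21 genes listed 9 were at least 2-fold higher and 1 at least 2-fold lower in OM 24h than in OM 0h. The list median was 0.93 beside 0 for all expressed genes. The 9 included Cxcl1, Cxcl2 and Ccl3 but not Ccl4 and Ptgs2. Among listed genes reaching an FPKM of 10, Cxcl2, a neutrophil chemokine, and Tlr2, a bacterial lipopeptide receptor, differed most at 2.31 and 1.70. The subunit gene Nfkb1 was lower at -1.14. Il1b, which encodes a strong inducer of Ccl2, had an FPKM of 112 in OM 0h, 249 in OM 24h and 163 in OM 7d, and between 12.2 and 21.7 in the mesentery. Between the naive tissues 8 of the 21 were at least 2-fold higher in the omentum and 3 lower, with Cxcl2 at 5.24 and Il1b at 2.31 and with Relb, a subunit of the alternative pathway, at -1.95. From OM 24h to OM 7d 5 of the 21 were at least 2-fold lower and none was higher.

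Interferon-responsive genes were counted in the same way. Of 17 genes 9 reached at least 2-fold more in OM 24h than in OM 0h, with a median of 1.25, and 9 stood at least 2-fold above OM 0h in OM 7d, with a median of 1.01. From OM 24h to OM 7d only 1 of the 17 was at least 2-fold lower. Cxcl10, a chemokine for activated T cells, had an FPKM of 12.1 in OM 0h, 124 in OM 24h and 116 in OM 7d, so it was high in both omental libraries after injection, whereas Ccl8 was high in OM 24h alone. Between the naive tissues none of the 17 was at least 2-fold higher in the omentum and 8 were at least 2-fold lower, with Mx1 at -3.26 and Usp18 at -2.29.

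Of 12 genes that respond to or signal for IL-10 and IL-4, 5 were at least 2-fold higher and none lower in OM 24h than in OM 0h, with a median of 0.62. Arg1, which encodes the arginase of alternatively activated macrophages, had an FPKM of 0.463 in OM 0h and 213 in OM 24h, and Chil3, a chitinase-like lectin, had 157 and 555. Retnla, the resistin-like marker of IL-4 exposure, was at -0.62, with 2402 in OM 24h against 3681. Between the naive tissues 6 of the 12 were at least 2-fold higher in the omentum, with Retnla at 7.22 and Ccl24, another eotaxin, at 3.67, and Ccl22, a ligand of Ccr4, was lower at -3.27. These lists were chosen by known function, and their counts are a description of these libraries.

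Likeness of pattern was measured as the root mean square difference of log2(FPKM + 1) values, centred on each gene's mean over the 6 libraries, among the 7998 genes reaching an FPKM of 10 in any library. Ccl2 and Ccl7 were each the gene most like the other, at 0.33. By Pearson correlation, however, Ccl7 ranked 10 for Ccl2 and Ccl2 ranked 4 for Ccl7. Next for Ccl2 were Rnase4, a secreted ribonuclease, at 0.54 and Cd177, a neutrophil surface protein, at 0.56. Next for Ccl7 were Mir1938, a microRNA row whose short length makes FPKM uncertain, at 0.57 and Cxcl2 at 0.67.

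Ccl8 was most like Stab1, a macrophage scavenger receptor, at 0.53, followed by C5ar1, the receptor of complement fragment C5a, at 0.64 and Gdf15, a stress-induced cytokine, at 0.65. Stab1 had 4.73, 38.1 and 2.50 FPKM at the 3 omental times, a course like that of Ccl8 at a lower level. Ccl12 was most like Itgb5, an integrin subunit, at 0.33, followed by Cxcl17 at 0.35 and Fcgr1, the high-affinity IgG receptor, at 0.50. Cxcl17 had an FPKM of only 0.165 in OM 0h and of 0, 0.539 and 0 at the mesenteric times. Its likeness there rests on the 1 added before the logarithm. Itgb5 had an FPKM of 9.07, 192 and 37.0 in the omentum and 8.45, 14.7 and 9.43 in the mesentery, close to Ccl12 in level as well. Ccr2 was most like AI839979 at 0.15, Ccdc109b, a subunit of the mitochondrial calcium uniporter, at 0.21 and Pilra, an inhibitory receptor of myeloid cells, at 0.22.

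Measured in the same way between members, Ccl8 and Ccl12 differed by 0.80, Ccl8 and Ccr2 by 1.01, Ccl12 and Ccr2 by 1.01, and the remaining pairs of Ccl2 or Ccl7 with Ccl8, Ccl12 or Ccr2 by 1.35 to 1.81. Ccl2 and Ccl7 were thus the closest pair and Ccl8 and Ccl12 the next, although Ccl12 ranked only 14 among the genes most like Ccl8 and Ccl8 ranked 59 for Ccl12. The former pair stayed at or below an FPKM of 1.47 in the mesentery, where the latter was present at 5.51 to 22.4. Likeness over 6 libraries that all genes share is a description only.

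**Figure D5:**
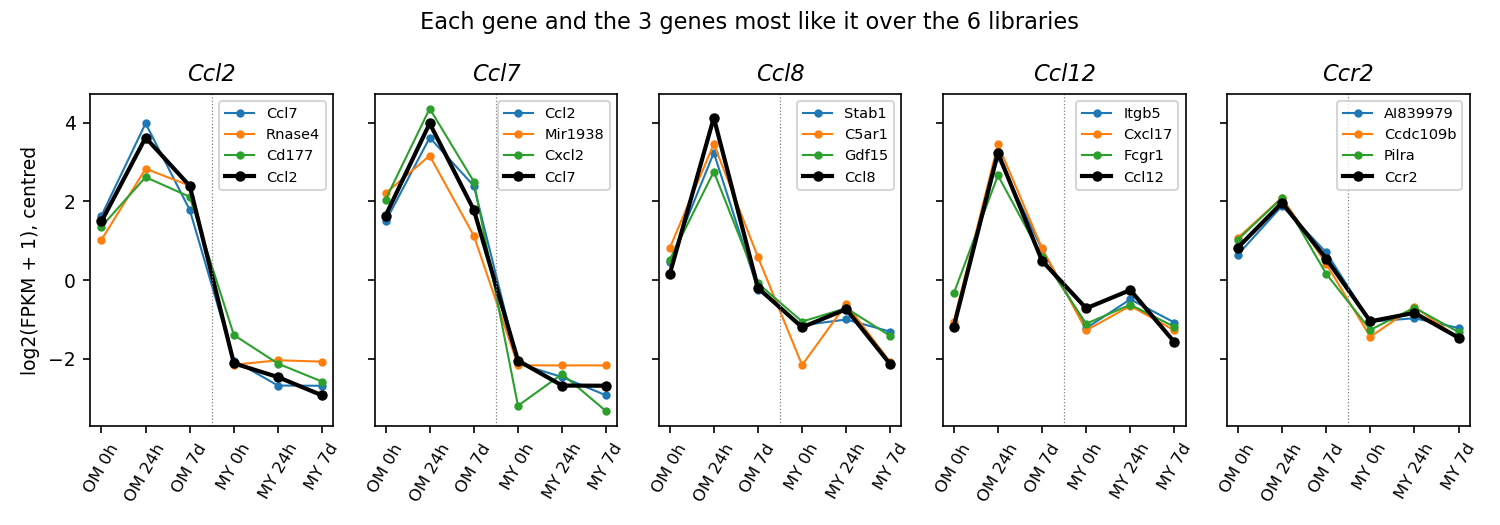
Values of log2(FPKM + 1), centred on the mean over the 6 libraries, for each of the 5 genes (black) and the 3 genes most like it (colours), with the dotted line between omental and mesenteric libraries. The black lines of Ccl2 and Ccl7 lie lowest in the mesenteric libraries, and those of Ccl8 and Ccl12 peak in OM 24h.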

How the data were processed

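RNA of sorted macrophages was measured in 6 libraries, 1 per tissue and time point. Per the labels and the study's methods, the authors checked reads with FastQC 0.11.4, aligned them to mm9 with STAR 2.4.2a and deposited FPKM per gene symbol computed with Cufflinks. FPKM carries no read numbers, so the depth behind a low value is unknown and no count test was run. Pairs of libraries were compared by subtracting log2(FPKM + 1) values made from the deposited FPKM, with Python 3.11.15, numpy 2.4.6 and pandas 2.3.3, with plots made in matplotlib 3.10.9. Genes reaching an FPKM of 1 in any library were taken as expressed, and those at least 2-fold apart were counted. The genes named were the 5 members, the 3 genes most like each, chromosomal neighbours, other receptors of the ligands, and from each pathway list the 2 genes with the largest rise and the 2 with the largest fall among those reaching an FPKM of 10 in the comparison. Genes of lists named outside this rule (Il1b at 24 h, Ly6c2, Cd3e and Fos) were chosen after their values were seen. Some genes that the rule or the lists hold are not reported here by name and stay in the counts of their lists. The members and lists were chosen with earlier results of these data known. Alternatives were pseudocounts of 0.1 and 5, rescaling by the median ratio, to a sum of 1000000 or to an equal mean of the macrophage list, a stricter filter, and Pearson correlation for likeness. Genes were placed on NCBIM37 with GENCODE M1, whereas the authors used a UCSC annotation. The scripts were tested on simulated data.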

Additional observations from a re-analysis of the deposited data

Results flagged for a closer look

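For 3 of the genes the change from the naive library had opposite signs in the omentum and the mesentery. No size was required of either change, and the share of expressed genes with opposite signs was not counted. The count is therefore a description only. The median change of all expressed genes was 0 in the omentum and 0.002 in the mesentery at 24 h, and -0.004 and 0.017 at 7 d. Each change is a difference of log2(FPKM + 1) between 2 libraries, and the difference between the tissues was not tested. At 24 h Ccl2 was at 2.13 in the omentum and at -0.35 in the mesentery, a difference of 2.48, and Ccl7 was at 2.35 and -0.64, a difference of 2.98. At 7 d the difference was 1.72 for Ccl2 (0.90 in the omentum and -0.82 in the mesentery), 0.79 for Ccl7 (0.15 and -0.64) and 2.54 for Ccl12 (1.68 and -0.86). In the mesentery Ccl2 and Ccl7 had an FPKM of no more than 1.47, whereas Ccl12 had between 5.51 and 15.3. With the macrophage list made equal, the median of all expressed genes moved to -2.36 in the omentum and -1.20 in the mesentery at 24 h, and both genes were negative in both tissues, Ccl2 at -0.23 and -1.55 and Ccl7 at -0.017 and -1.84. At 7 d the signs stayed opposite under that setting, at 1.31 and -1.12 for Ccl2, 0.55 and -0.95 for Ccl7 and 2.08 and -1.17 for Ccl12.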

How the results depend on the processing

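No paired analysis was possible because a condition is a single library with no replicate of its own. The tissues pair by time, and the difference at each time is given as a value with no test, since the times are not replicates. Leaving out a time, chosen after seeing the data, gave 4 or 5 of 5 genes with every omental library above every mesenteric library. Of 298 values recomputed, 234 stayed within 1.5-fold, 57 moved by more and 7 that were at least 2-fold apart changed sign, all 7 when the macrophage list was made equal. A further 9 differences under 2-fold changed sign, all with the macrophage list made equal except that of Ccl7 for MY 7d against MY 24h with a common sum (0.020). The 7 were, for OM 24h against OM 0h, Ccl2 (-0.23), Ccl7 (-0.017) and Ccr2 (-1.22), and for OM 7d against OM 24h, Ccl2 (1.54), Ccl7 (0.56), Ccl12 (0.018) and Ccr2 (1.35). Counts with the macrophage list made equal are of either direction, and shares of all expressed genes were not counted under it. In OM 24h against OM 0h, 3 genes instead of 5 were at least 2-fold apart, Ccl8 and Ccl12 higher and Ccr2 lower. In OM 7d against OM 24h the count was also 3 instead of 5, with Ccl2 and Ccr2 higher and Ccl8 lower. The median of all expressed genes was -2.36 in the former comparison and 2.82 in the latter. The count was 2 instead of 1 in OM 7d against OM 0h and 2 instead of 0 in MY 24h against MY 0h. It was 3 instead of 0 in MY 7d against MY 0h and 0 instead of 2 in MY 7d against MY 24h. In OM 0h against MY 0h it stayed at 4, with Ccl12, lower in the omentum, in place of Ccl8. Rescaling to a sum of 1000000 gave 2 in OM 7d against OM 0h, 2 in MY 7d against MY 0h, 4 instead of 5 in OM 24h against OM 0h, where Ccr2 was lost, and 4 instead of 5 in OM 7d against OM 24h, where Ccl2 was lost. A pseudocount of 0.1 gave 1 in MY 24h against MY 0h and 3 in MY 7d against MY 0h, and a pseudocount of 5 gave 1 in MY 7d against MY 24h. A filter of FPKM at least 1 in every library removes Ccl2 and Ccl7 and recomputes no fold change. Its counts of fold changes therefore follow from dropping these genes, and no share of the genes kept was counted for them. It left 3 genes in OM 24h against OM 0h, 3 in OM 7d against OM 24h and 2 in OM 0h against MY 0h. In OM 24h against MY 24h and in OM 7d against MY 7d it left 3 each. Used after seeing the data on the overlap of the tissues, it left 2 genes with no overlap. By Pearson correlation 2 of the 15 genes most like the members were the same. Rescaling to a common sum moved the median of all expressed genes by -0.28 to 0.31 on the log2 scale. Median-ratio rescaling changed none of the 45 fold changes by more than 1.5-fold.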
